A study of Nematostella vectensis with 10 samples.

Results

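A set of 29 gene models of the sea anemone *Nematostella vectensis* stood far higher in the apical piece of the larva than elsewhere. This held at both stages sampled. The genes were chosen by measured values, out of 23333 gene models with at least 15 counts in total (25729 in the files). A gene was taken when the lowest of the 5 apical libraries was at least 4 times the highest of the 5 body libraries and the mean apical level was at least 5 CPM, where CPM is counts per 1000000 after TMM (trimmed mean of M-values) normalisation. The same limits took 41 genes in all, and 12 of these were left out. They belong to 20 genes that the study names, among them genes of the apical organ and of larval gland cells, and that are not members. With the tissues exchanged, the limits took 209 genes. The difference between the tissues is therefore how the members were found, and it is described below without a test.

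The apical organ is the ciliated sensory structure at the swimming pole of the planula, which is the aboral pole. At its centre, the spot, sit the cells that carry the long apical tuft, and a ring of larval neurons surrounds them. Signalling by fibroblast growth factors is needed for the organ to form, and the organ is lost when the larva settles and becomes a polyp. None of the 29 gene models has a name or a function in the sources used here, so they are given by identifier (NVE numbers) and no role is attached to any of them.

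Planulae were cut by hand with needles into an apical piece (larval aboral tissue) and the remainder, here the body. Mid-planulae, 50 to 60 h after fertilisation, gave 2 libraries of each tissue, and late planulae, 75 to 85 h after fertilisation, gave 3 of each. No treatment or mutant was involved. Each sample was pooled from many larvae of several batches, so the spread between libraries is one between pools and not between animals, and the apical piece holds other cells of the pole besides the organ. In such bulk samples, fewer cells of a type and less RNA per cell cannot be told apart.

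Counts assigned to genes summed to 14364093 to 27730410 per library, TMM factors were 0.745 to 1.26 and 20941 to 23539 gene models were detected per library. The smallest level that a library could show was taken as 3 counts, or 0.104 to 0.223 CPM, which covers counting error only. Among counts of 1 to 20, 70.3% to 83.9% per library were even. The 6 spot genes named by the study summed to 735 to 1078 CPM in apical libraries and 37.1 to 51.8 CPM in body libraries, and the 3 ring genes to 1019 to 3249 CPM and 86.5 to 169 CPM. The study picked these genes as enriched in apical tissue in the same data, so they cannot check the labels. Markers of the pharyngeal gland cells (type 4, 4 genes), which the study picked by cell type, went with the labels. They summed to 1183 to 3340 CPM in the body and 6.64 to 25.3 CPM in apical tissue, highest in mid-planula apical replicate 1.

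Together the 29 genes made up 0.327% to 0.455% of the counts of an apical library and 0.0212% to 0.0389% of those of a body library. Their summed level was 2891 and 3813 CPM in the mid-planula apical libraries and 5126, 3586 and 4393 CPM in the late ones. In the body it was 308 and 299 CPM in the mid-planula and 337, 340 and 230 CPM in the late planula. These sums could not overlap between the 2 tissues, because each gene was selected to have no overlap. CPM is not corrected for transcript length, so the levels of different genes are set side by side below but not ranked. Mean apical levels ran from 5.66 to 1280 CPM over the members (median 45.3) and mean body levels from 0.077 to 117 CPM (median 1.69). The median ratio of the means was 17.8.

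**Figure D1:**
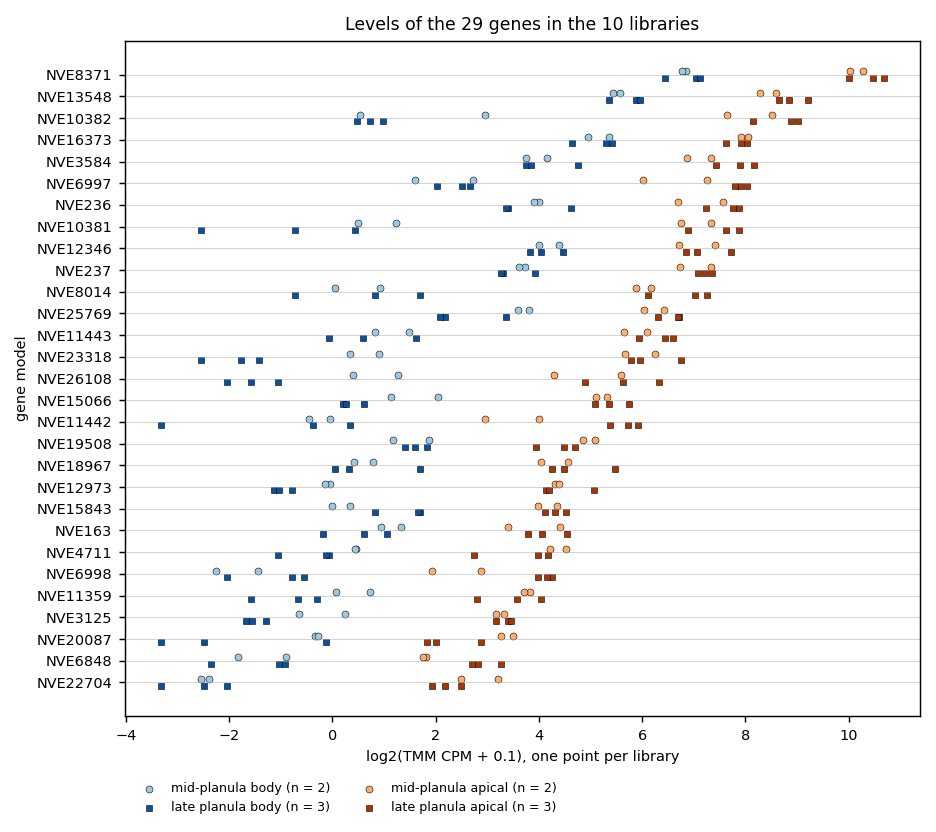
Levels of the 29 genes in the 10 libraries, as log2 of CPM plus 0.1, with 1 point per library. Circles are mid-planula and squares late planula, blue is the body and orange to brown is apical tissue; for each gene all 5 apical points lie to the right of all 5 body points because the genes were selected so.

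The body level relative to the apical level differed among members. CPM is a level within a library, and the body is the larger piece of the larva. The percentages below are therefore not the share of a gene's transcripts that lay in the body. The mean body level was at most 1% of the mean apical level for 3 genes, 1% to 5% for 10, 5% to 10% for 10 and above 10% for 6 (median 5.62%, highest 14.8% in NVE16373).

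The 3 genes at or under 1% were NVE10381, NVE10382 and NVE23318. NVE10381 stood at 108 and 162 CPM in the mid-planula apical libraries and 197, 119 and 235 CPM in the late ones, against 1.31 and 2.25 CPM in the mid-planula body and 0.0717, 1.25 and 0.508 CPM in the late body. Its lowest apical library was 47.8 times its highest body library, the widest gap among the members. NVE10382 was at 200, 367, 520, 285 and 471 CPM in the same order of apical libraries and at 1.34, 7.69, 1.29, 1.87 and 1.56 CPM in the body. Mid-planula body replicate 2 was the exception there, and the other 4 body libraries lay close together. NVE23318 had 50.8, 76.2, 107, 54.9 and 61.7 CPM in apical tissue and 1.78, 1.17, 0.0717, 0.192 and 0.274 CPM in the body, so its body level was low throughout and lowest in the late planula.

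A body level of 1% to 5% of the apical one was found for 10 genes. Of all members, only NVE22704, which is one of them, never exceeded 3 counts in a body library (2, 2, 0, 3 and 2 counts). It had 5.52, 9.12, 5.51, 3.70 and 4.45 CPM in the apical libraries, and was at least 39.3-fold higher there when every body library is put at 3 counts. Of the 29 members, 20 exceeded 3 counts in every body library, and a body library with 0 counts occurred only for NVE11442, NVE20087 and NVE22704. Body counts above 3 could still be low. NVE12973 had 5 counts in late planula body replicate 1 and NVE11359 had 6 in late planula body replicate 3. NVE6997 averaged 188 ± 79.5 CPM in apical tissue and 5.05 ± 1.54 CPM in the body (mean ± SD, n = 5 libraries per tissue, as for all means of this and the next paragraph). NVE8014 averaged 96.6 ± 41.8 CPM against 1.61 ± 1.0 CPM. Both exceeded 3 counts in every body library, although NVE8014 had only 7 counts in late planula body replicate 1. NVE11443 averaged 72.7 ± 19.3 CPM against 1.92 ± 0.891 CPM. NVE26108 averaged 45.3 ± 23.4 CPM against 0.860 ± 0.921 CPM. For NVE26108 the SD in the body exceeds the mean, because the 2 stages differed there, as given below. NVE15066 averaged 40.5 ± 8.08 CPM against 1.95 ± 1.25 CPM. NVE11442 averaged 35.7 ± 23.0 CPM against 0.669 ± 0.431 CPM. This last gene was also the least even among apical libraries, its highest being 7.87 times its lowest. NVE12973 stood at 22.0 ± 6.57 CPM against 0.582 ± 0.241 CPM. For NVE6998 the means were 12.7 ± 6.77 CPM and 0.318 ± 0.209 CPM. NVE3125, at 9.81 ± 0.943 CPM against 0.479 ± 0.364 CPM, was the most even of all 29 genes in apical tissue, with a highest library only 1.23 times the lowest (median of the members 2.24).

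The genes with a body level of 5% to 10% of the apical one included NVE8371. It held the largest single share of the members' summed level. NVE8371 stood at 1048, 1243, 1650, 1028 and 1422 CPM in the apical libraries and at 115, 110, 132, 140 and 86.9 CPM in the body. Neither tissue showed a library set apart from its others. NVE3584 averaged 195 ± 67.4 CPM in apical tissue and 17.1 ± 5.71 CPM in the body. NVE236 averaged 180 ± 53.2 CPM against 15.2 ± 5.77 CPM. NVE237 averaged 143 ± 23.5 CPM against 12 ± 2.37 CPM. None of these 3 genes had a body library near the floor. NVE18967 averaged 25.1 ± 11.0 CPM against 1.61 ± 0.883 CPM. NVE163 averaged 17.0 ± 5.29 CPM against 1.69 ± 0.619 CPM, and NVE4711 16.4 ± 6.06 CPM against 0.919 ± 0.367 CPM. In all 3 the lowest apical library was 4.29 to 5.21 times the highest body library. NVE11359 averaged 12.4 ± 3.57 CPM against 0.797 ± 0.499 CPM. NVE20087 averaged 7.10 ± 3.41 CPM against 0.461 ± 0.389 CPM, and NVE6848 5.92 ± 2.63 CPM against 0.306 ± 0.158 CPM. The 6 genes above 10% were NVE13548 (430 ± 108 CPM against 50.5 ± 9.53 CPM), NVE16373 (241 ± 27.2 CPM against 35.6 ± 7.63 CPM), NVE12346 (147 ± 44.0 CPM against 17.8 ± 3.39 CPM) and 3 more. In NVE25769 the means were 87.7 ± 16.7 CPM and 8.91 ± 4.41 CPM. In NVE19508 they were 25.3 ± 7.04 CPM and 2.93 ± 0.590 CPM, and in NVE15843 19.2 ± 2.77 CPM and 1.99 ± 1.06 CPM.

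The list has soft edges. Just inside the fold limit stood NVE236, with a lowest apical over highest body ratio of 4.25, and NVE20087, also with 4.25. Just outside stood NVE15867 (3.57) and NVE25434 (3.56). At the limit on level, NVE22704 (5.66 CPM) and NVE6848 (5.92 CPM) were in, and NVE6050 (3.75 CPM) and NVE5434 (3.21 CPM) were out. In all, 48 genes not among the 20 named ones had the fold at any level, and 19 of them were under 5 CPM. A fold limit of 3 gave 45 genes and a limit of 5 gave 18.

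The tissue difference could be tested only in libraries that had not chosen the genes. The limits applied to the 4 mid-planula libraries alone took 76 genes, 28 of them members, and the one member missed was NVE6848, whose mean there was 3.35 CPM. In the 6 late planula libraries, 73 of these 76 genes were called higher in apical tissue by edgeR's quasi-likelihood test (Benjamini-Hochberg adjusted p under 0.05), where 3.97% of all 19950 genes tested were called higher. Their median log2 fold change was 2.75 against 0.0056 over all genes, and 57 to 72 were called with 1 late library left out. In the other direction, the 6 late planula libraries alone took 45 genes, 27 of them members, and missed NVE20087 and NVE22704, whose late means were 4.89 and 4.55 CPM. In the mid-planula, 43 of the 45 could be tested and 42 were called higher in apical tissue, against 2.48% of all 20466 genes tested. Their median log2 fold change was 3.45 against -0.03 over all genes. A gene that met the limits at one stage was thus in nearly every case higher in apical tissue at the other. The gap between the extremes there was not necessarily 4-fold.

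The rule did not compare the stages, and the change from mid to late planula was tested within each tissue. All 10 libraries were in the fit and 21683 genes were tested, all 29 members among them. The rule did require the gap at both stages. Fewer genes met the limits in the late planula libraries alone (45) than in the mid-planula ones alone (76). It can therefore favour genes with high apical and low body values in the late planula, so all genes are not a neutral reference for the members. In apical tissue 0 of the 29 members were called by edgeR, while 1.18% of all genes were called higher and 0.922% lower in the late planula. At an unadjusted p under 0.05, 5 members were higher and 0 lower (9.16% and 7.18% of all genes). The DESeq2 Wald test called 2 members and limma-voom 2, all higher. The median log2 fold change of the members was 0.25 against 0.04 over all genes, and 23 of 29 were above 0. Without mid-planula apical replicate 1 these values were 0.151 against 0.124 and 18 of 29, and without late planula apical replicate 1 they were 0.0981 against 0.0371 and 19 of 29. The median was larger, 0.555 and 0.466, without mid-planula or late planula apical replicate 2, with 23 of 29 above 0 in each case.

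The 2 genes that DESeq2 and voom called were NVE11442 and NVE6998. NVE11442 stood at 7.71 and 16.0 CPM in the mid-planula and at 52.7, 41.5 and 60.6 CPM in the late planula. All late libraries were above both mid-planula ones, and the ratio between the 2 mid-planula libraries was larger than that between any late ones. The log2 fold change was 2.13 (SE 0.58), with an adjusted p of 0.0783 in edgeR and of 0.00238 to 0.386 over the alternatives. NVE6998 stood at 3.71 and 7.30 CPM in the mid-planula and at 18.9, 17.7 and 15.8 CPM in the late planula, again without overlap. Its log2 fold change was 1.68 (SE 0.45, adjusted p = 0.0764 in edgeR, 0.00448 to 0.386 over the alternatives). The other 3 were NVE6997 (1.14, adjusted p = 0.147; 0.654 without mid-planula apical replicate 1 and 1.89 without replicate 2), NVE6848 (1.19, adjusted p = 0.269) and NVE3584 (0.74, adjusted p = 0.306).

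**Figure D2:**
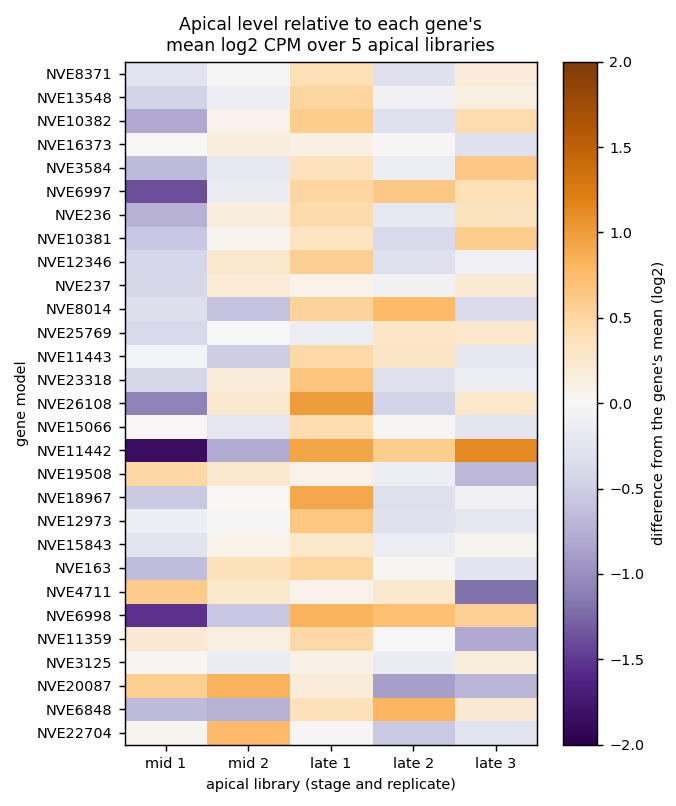
Level of each of the 29 genes in the 5 apical libraries, as the difference of log2 CPM from that gene's mean over these libraries (orange above, purple below). Many genes are lowest in mid-planula replicate 1 and highest in late planula replicate 1, and NVE11442, NVE6998 and NVE6997 are lowest in mid-planula replicate 1 by the widest margins.

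In apical tissue, all 3 late libraries were above both mid-planula libraries for 6 members (NVE13548, NVE3584, NVE6997, NVE11442, NVE6998 and NVE6848), or 20.7% against 16.6% of all genes tested. They were all below for 4 members (NVE19508, NVE4711, NVE20087 and NVE22704), or 13.8% against 16.3%. Both shares are near those of all genes. NVE20087 gave the lowest log2 fold change, -1.09 (SE 0.69, adjusted p = 0.477), with 9.55 and 11.3 CPM in the mid-planula and 7.27, 3.48 and 3.93 CPM in the late planula.

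Single libraries also stood out. Late planula apical replicate 1 was the highest apical library for 15 of the 29 members but for 14.6% of all genes tested, and mid-planula apical replicate 1 was the lowest for 16 members but for 20.3% of all genes. A late planula library was the highest for 24 of 29 members and for 60.5% of all genes. The spot and ring genes moved in part with these libraries. Their sums were 1078 and 3249 CPM in late planula apical replicate 1, the highest of the 5 in each case, while in mid-planula apical replicate 1 they were 779 and 1121 CPM, which was not the lowest value of either list. Their part in the pattern was not tested.

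In the body, 2 of the 29 members were called lower in the late planula and 0 higher by edgeR, against 0.65% and 1.99% of all genes. Both calls rest on few body counts. NVE23318 fell from 1.78 and 1.17 CPM in the mid-planula body (49 and 26 counts) to 0.0717, 0.192 and 0.274 CPM in the late planula body (1, 4 and 7 counts), with a log2 fold change of -2.88 (SE 0.50, adjusted p = 0.0141). Over the alternatives its log2 fold change lay between -3.32 and -2.54 and its adjusted p between 0.000107 and 0.171. NVE26108 fell from 2.32 and 1.21 CPM (64 and 27 counts) to 0.143, 0.384 and 0.235 CPM (2, 8 and 6 counts), with a log2 fold change of -2.73 (SE 0.62, adjusted p = 0.0379, 0.001 to 0.311 over the alternatives). The stages did not overlap for either gene. In apical tissue the same genes had log2 fold changes of 0.23 (SE 0.34, adjusted p = 0.797) and 0.66 (SE 0.46, adjusted p = 0.52).

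These calls depended on the fit. Both were lost with voom (adjusted p = 0.171 for NVE23318 and 0.311 for NVE26108), with the body libraries alone (0.0933 and 0.0919), with the replicate number as a block (0.08 and 0.165), without mid-planula body replicate 1 (0.0995 and 0.259) or 2 (0.101 and 0.13) and without late planula body replicate 3 (0.0577 and 0.171). The call of NVE26108 was lost as well without late planula body replicate 1 (0.0753) or 2 (0.059) and after all counts had been halved (0.0538).

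Other members had a body difference in either direction that did not pass the test. NVE15066 stood at 2.10 and 4.05 CPM in the mid-planula body and at 1.43, 1.06 and 1.09 CPM in the late planula body (log2 fold change -1.36, SE 0.34, adjusted p = 0.0561). NVE3125 stood at 1.09 and 0.540 CPM and then at 0.215, 0.240 and 0.313 CPM (-1.62, SE 0.45, adjusted p = 0.071). Neither gene overlapped between the stages. The largest difference in the other direction was that of NVE15843, at 1.16 and 0.900 CPM in the mid-planula body and 3.15, 3.08 and 1.68 CPM in the late planula body (1.34, SE 0.37, adjusted p = 0.0709). At an unadjusted p under 0.05, 9 members were lower and 1 higher in the late body (7.36% and 10.1% of all genes). All 3 late libraries were below both mid-planula libraries for 9 members (31% against 17.9% of all genes tested) and above them for 1 (3.45% against 18.4%). These 9 genes were NVE10381, NVE25769, NVE23318, NVE26108, NVE15066, NVE12973, NVE4711, NVE11359 and NVE3125.

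The median log2 fold change of the members in the body was -0.145 against -0.00647 over all genes, and 10 of 29 were above 0. Without mid-planula body replicate 1 the median was -0.0844 and 14 of 29 were above 0. It was -0.26 without mid-planula body replicate 2 and -0.308, -0.264 and -0.291 without late planula body replicate 1, 2 or 3. NVE10382 changed sign with 1 library, from -1.48 (adjusted p = 0.189) to 0.248 without mid-planula body replicate 2. For the genes that mark the apical organ, 8 of the 9 spot and ring genes had a lower mean in the late body, where 50.9% of all genes did. Some of these 8 differed little or were near 0 CPM, as NVE8226 (20.3 and 19.3 CPM) and NVE27 (0.045 and 0.0261 CPM). The one that went the other way was NVE2832 (8.85 and 12.1 CPM). These genes were picked as apical in the same data, so all genes are not a neutral reference. The 6 spot genes summed to 51.8 and 49.1 CPM in the mid-planula body and to 39.9, 46.2 and 37.1 CPM in the late one, without overlap, and the 3 ring genes to 107 and 169 CPM and then to 112, 88.7 and 86.5 CPM, with overlap. Their part in the body levels of the members was not tested.

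**Figure D3:**
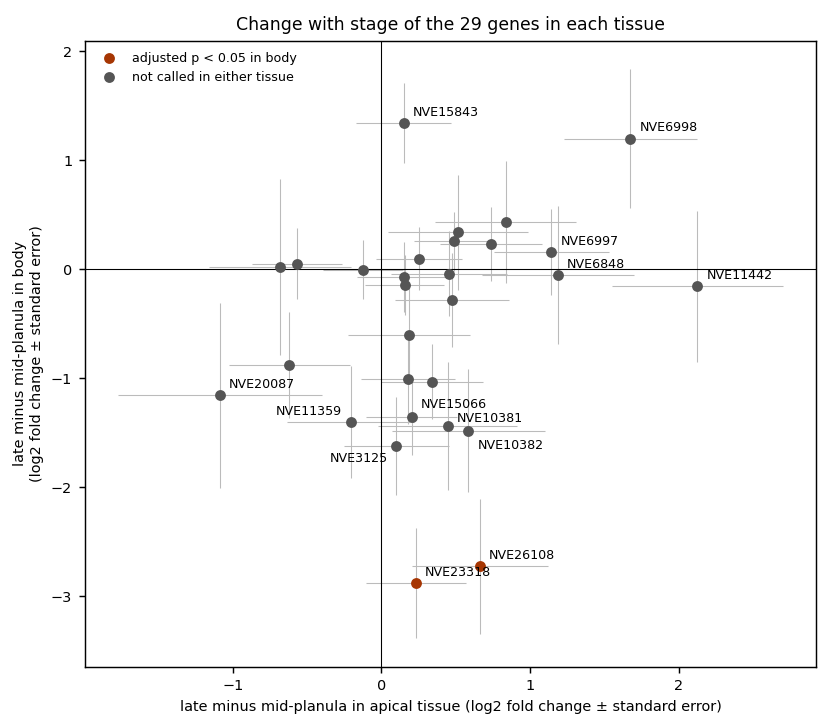
Log2 fold change from mid to late planula of each of the 29 genes in apical tissue (horizontal) and in the body (vertical), with standard errors. NVE23318 and NVE26108, in orange, are the 2 genes called in the body (-2.88 and -2.73), NVE11442 (2.13) lies farthest to the right, and most points lie right of 0.

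As a share of the apical level, the body level was lower in the late planula than in the mid-planula for 25 of the 29 members, with a median of 7.14% at the earlier and 4.21% at the later stage. Over all genes tested with an apical level at both stages this share was lower in the late planula for 55.6%. The limits can favour a low late share among the members, so this is not a neutral comparison. In NVE26108 the ratio of the apical to the body mean was 19.0 at the earlier and 209 at the later stage. The later value rests on 2, 8 and 6 counts in the late planula body libraries and is poorly determined. In NVE25769 it was 5.86 and 15.3. The 4 members that went the other way were NVE15843 (17.5 and 7.58), NVE19508 (11.0 and 7.12), NVE16373 (7.06 and 6.55) and NVE22704, which had at most 3 counts in any body library.

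The difference between the stages in the tissue effect was tested as an interaction. None of the members was called by edgeR (0 of 29), as for nearly all genes, of which 0% were called higher and 0.0231% lower. In simulated data this test called only 9% of the genes that had been changed 4-fold. Those genes started from the same level in both tissues, unlike the members, so the rate for the members is not known. The 0 calls thus do not show that the tissue difference was alike at both stages. At an unadjusted p under 0.05, 9 members had a larger apical excess in the late planula and 1, NVE15843, a smaller one (1.28% and 2.76% of all genes). The limits were met by fewer genes in the late planula libraries alone (45) than in the mid-planula ones alone (76). A larger late excess can thus come in part from the selection, here and in the medians below, and all genes are not a neutral reference. DESeq2 called 2 members and voom 0. The smallest adjusted p was 0.178, for NVE23318 (log2 difference 3.12, SE 0.62), followed by 0.283 for NVE26108 (3.39, SE 0.78). These were the 2 genes that DESeq2 called. The median of the members was 0.51 against 0.06 over all genes, with 25 of 29 above 0 and 22 to 25 with 1 library left out. The median itself ran from 0.378 without mid-planula body replicate 2 to 1.03 without late planula body replicate 2, and was 1.0 without mid-planula apical replicate 2.

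The 12 named genes that met the same limits but were left out can be set beside the members. In apical tissue their median log2 fold change was -0.02, with 6 of 12 above 0 and 0 called. In the body it was -0.73, with 1 of 12 above 0 and 1 called lower, where 0.65% of all genes were. The called gene, NVE10492, had 0.290 and 0.450 CPM in the mid-planula body and 0 CPM in each late planula body library. That call rests on few counts. For the 12 genes the median interaction was 1.10, with 9 of 12 above 0 and 0 called. These genes met the same limits in the same 10 libraries, so they are not independent of the members.

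Of the 29 identifiers, 8 form 4 pairs of consecutive numbers, and 1 more, NVE4711, is next to the ring gene NVE4712. Positions in the genome were not examined, and reads shared between near-identical or overlapping gene models would make the members of a pair alike. The ratio of NVE10381 to NVE10382 was 0.378 to 0.538 over the 5 apical libraries, that of NVE236 to NVE237 0.975 to 1.58 and that of NVE6997 to NVE6998 12.6 to 20.9. Each of these 3 ratios stayed within 1.67-fold. The ratio of NVE11442 to NVE11443 ran from 0.114 and 0.321 in the mid-planula to 0.541, 0.477 and 0.992 in the late planula, an 8.73-fold range. The counts of these 2 genes were thus not in a fixed ratio. The apical log2 fold change from mid to late planula was 2.13 (SE 0.58, adjusted p = 0.0783) for NVE11442 and 0.47 (SE 0.38, adjusted p = 0.594) for NVE11443 in edgeR, and the difference between them was not tested.

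**Figure D4:**
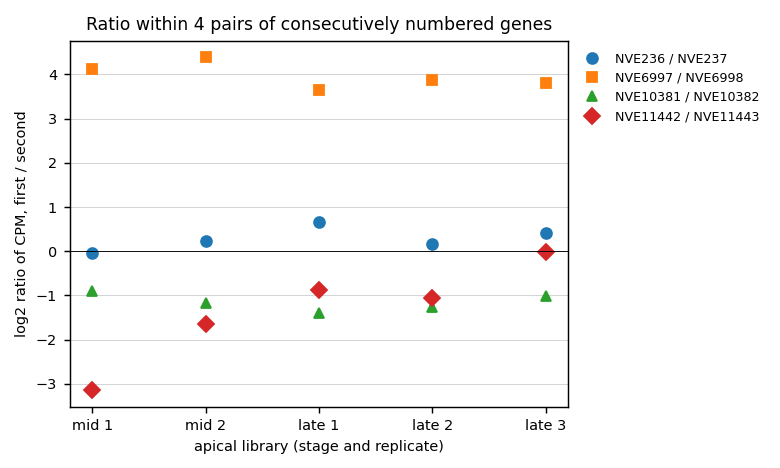
Log2 ratio of the CPM values of consecutively numbered members (first over second) in each apical library. The ratio of NVE11442 to NVE11443 spreads over an 8.73-fold range and the other 3 ratios stay within 1.67-fold.

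Most neighbours of a member by number were not apical. Of 49 identifiers next to a member and not members themselves, 45 had enough counts, and 3 of these had a mean apical level at least 4 times the mean body level (NVE13547, NVE4712 and NVE6999), against 1.31% of the 23304 other genes. Around the pair NVE6997 and NVE6998, chosen for a look after its values had been seen, NVE6999 averaged 7.44 ± 7.89 CPM in apical tissue and 0.246 ± 0.258 CPM in the body, with 0.312 and 3.13 CPM in the mid-planula apical libraries and 11.8, 2.75 and 19.2 CPM in the late ones. NVE6995 averaged 5.16 ± 3.99 CPM against 0.513 ± 0.278 CPM, with 1.39 and 1.5 CPM and then 4.24, 8.94 and 9.72 CPM. NVE6996 had 0 counts in every library. NVE6995 was higher in all late than in both mid-planula apical libraries, as were NVE6997 and NVE6998, while NVE6999 overlapped between the stages. NVE13547, the neighbour of NVE13548, averaged 25.9 ± 14.2 CPM against 4.27 ± 2.73 CPM, and its lowest apical library did not exceed its highest body library.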

How the data were processed

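mRNA libraries (SENSE kit) of 10 pooled tissue samples were analysed, 5 apical and 5 body. The files deposited by the authors hold raw counts of reads for each gene model (NVE identifiers). Per the methods and the submitters' processing notes, reads were trimmed with Trimmomatic 0.36, mapped with STAR and counted with HTSeq 0.6. The genome build and the strand setting of the counting are not given in the sources used here.

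TMM-normalised CPM came from edgeR 4.0.16 (R 4.3.3) for genes with 15 or more counts. Tests were edgeR's quasi-likelihood tests on the counts after filterByExpr, with 4 stage-by-tissue groups (or the libraries of 1 stage), Benjamini-Hochberg adjustment over all genes tested and calls under 0.05. The tests set each difference against the estimated spread between pooled samples, so a call does not speak for single larvae. The code was tested on simulated data, with 200 genes changed 4-fold for each stage test and for the interaction. The stage test called 53.5% of the changed genes in apical tissue and 60.5% in the body, and the interaction test 9%. The members and gene lists were chosen with earlier results of these data known. All members were named, with the 2 genes nearest each limit on either side.

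Alternatives were DESeq2 size factors, upper-quartile factors, no low-count filter, the DESeq2 Wald test (1.42.0), limma-voom (3.58.1), 1 tissue alone, a replicate block, each library left out in turn and other limits for the members. Halving the counts was an alternative chosen after seeing the data. No 2 replicates were duplicates (chi-square per degree of freedom 31.3 to 107).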

Additional observations from a re-analysis of the deposited data

Results flagged for a closer look

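In 58 sets of 5 libraries (each member in each tissue), 3 values lay far from the other 4 of their set by Dixon's test, which chance alone does in about 1 of 20 sets. NVE10382 had 7.69 CPM in mid-planula body replicate 2, where the other body libraries had 1.29 to 1.87 CPM. NVE18967 had 44.2 CPM in late planula apical replicate 1, against 16.3 to 23.6 CPM in the other apical libraries. NVE12973 had 33.5 CPM in the same library, against 17.5 to 21 CPM.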

How the results depend on the processing

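The number of genes meeting the limits was 45 with a fold of 3, 18 with a fold of 5, 76 in the mid-planula libraries alone, 45 in the late planula libraries alone, 24 without normalisation factors (22 of them members) and 28 to 36 with 1 library left out. In apical tissue the stage test called 0 members, but 2 with the DESeq2 Wald test, 2 with voom, 1 with the apical libraries alone and 2 with halved counts (0 to 0 with 1 library left out). In the body it called 2, but 5 with the DESeq2 Wald test (1 higher, 4 lower), 0 with voom, 0 with the body libraries alone, 1 with halved counts and 0 to 3 with 1 library left out. The interaction called 0, but 2 with the DESeq2 Wald test (0 to 0 with 1 library left out). The tissue test in the late planula called 57 to 72 and that in the mid-planula 39 to 44 with 1 library left out. NVE10382 in the body ranged from -2.26 to 0.248 with 1 library left out, reversed without mid-planula body replicate 2. Over all genes, stage calls in apical tissue (455) fell to 0 without mid-planula replicate 1, 219 without mid-planula replicate 2 and 61 without late planula replicate 3, and those in the body (572) to 55 and 0 without mid-planula replicate 1 or 2, 380 without late planula replicate 2 and 78 without late planula replicate 3. The 2 called single-gene results kept their call in 11 of 26 alternatives and lost it in 15, and the 23 that were not called gained one in 14 of 339 and reversed in 1. These single-gene results were only those of members with an unadjusted p under 0.05 in the main stage or interaction test. Members with smaller changes are not covered by this tally. The causes of the differences between settings were not tested, beyond the fewer samples or genes that some settings use. Where a mid-planula library is left out, the lone sample is assumed to vary like the other groups.

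Same-numbered apical and body libraries deviated together with correlations of 0.155 and 0.155 in the mid-planula and 0.235, 0.49 and -0.0918 in the late planula, so the numbers do not establish a pairing. With the replicate block, 0 members were called in apical tissue, 0 in the body (adjusted p = 0.08 for NVE23318 and 0.165 for NVE26108), 0 in the interaction, 73 in the late planula tissue test and 42 in that of the mid-planula. Over all genes the block called 0 for stage in apical tissue and 63 in the body, where the fit without it called 455 and 572, and 45 in the interaction in place of 5. The DESeq2 Wald test called 1488, 1756 and 110 genes in the same 3 tests. Depth limits the body values, since 9 members had a body library at or under 3 counts. Most low counts are even, so counting error may exceed what the counts give.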
